A study of Sus scrofa with 18 samples.

Results

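The genes described here are the secreted and cell-surface components of the WNT system in the pig: the WNT ligands, the Frizzled (FZD) receptors, the secreted frizzled-related proteins (SFRP) and Dickkopf proteins (DKK), which are antagonists, and the R-spondins (RSPO), which are enhancers. Members were all protein-coding RefSeq genes of Sus scrofa 11.1 on chromosomes 1 to 18 and X whose symbol begins with WNT, FZD, SFRP, DKK or RSPO followed by a digit. This gave 41 of 19484 genes, namely 19 WNT genes, 10 FZD genes, 4 SFRP genes, 4 DKK genes and 4 RSPO genes. Their median length was 21977 bp, against 20697.5 bp for all protein-coding genes.

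The histone marks H3K4me3, found at active promoters, and H3K27ac, found at active promoters and enhancers, were profiled with an IgG control in the myometrium, the smooth muscle wall of the uterus. GD15M_CM is the inner circular muscle and GD15M_LM the outer longitudinal muscle of gilts on day 15 of pregnancy, and CD15M_CM is the circular muscle of cyclic gilts at the same day of the estrous cycle. All gilts were of the Yorkshire breed, and tissue was taken from the side of the uterus that faces the mesometrium. The 18 libraries comprise 2 gilts for each mark or control and tissue, but peaks were called after pooling both gilts, so each mark and tissue has 1 list of peaks.

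WNT ligands are lipid-modified secreted proteins that bind Frizzled receptors. Together with the co-receptors LRP5 and LRP6 they stabilise beta-catenin, which acts in the nucleus with TCF/LEF factors, while other WNT proteins act through ROR and RYK receptors without beta-catenin. SFRP proteins bind the ligands, Dickkopf proteins bind the co-receptors, and R-spondins keep Frizzled receptors at the membrane by removing the ligases that degrade them. In the uterus the pathway is known from the patterning of the female tract, the formation of glands and the response of the endometrium to the embryo.

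For every gene, peaks were collected from 3 kb before to 3 kb after the gene. A peak's fold enrichment is the ratio of the mark over IgG, and its percentile places this fold enrichment among all peaks of the same list. A gene's percentile is that of its strongest peak, or 0 where it has no peak. Percentiles were compared because the lists differed in size, with 33599, 31910 and 36331 H3K4me3 peaks and 79877, 57010 and 82037 H3K27ac peaks in GD15M_CM, GD15M_LM and CD15M_CM. Values below are given in this order of tissues. A gene was called different between lists at 10 percentile points or more. With 1 pooled list per mark and tissue there is no error between gilts and no test, and every difference lacks a replicate check.

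The tissues were examined first with lists of cell type markers. All 10 smooth muscle markers, among them MYH11, ACTA2 and DES, had both marks in every list, with median percentiles of 77.0, 90.1 and 87.3 for H3K4me3 and 87.4, 94.5 and 94.2 for H3K27ac. The uterine epithelium markers, by contrast, had median H3K4me3 percentiles of 79.4, 59.0 and 75.7, and all 9 that could be placed ranked higher in GD15M_CM than in GD15M_LM. Their H3K27ac medians were 76.1, 19.8 and 64.2, their summed H3K27ac peak lengths were 46566, 10582 and 23264 bp, and KRT18, KRT19 and FOXA2 had no H3K27ac peak in GD15M_LM. Stroma markers had H3K4me3 medians of 73.5, 82.2 and 79.8, and H3K27ac medians of 88.7, 87.4 and 93.2. Endothelium markers had 60.2, 62.7 and 65.9 for H3K4me3 and 41.5, 38.3 and 47.3 for H3K27ac. Mesothelium markers had 51.1, 28.1 and 56.6 for H3K4me3 and 31.8, 45.6 and 22.4 for H3K27ac. Immune cell markers had H3K4me3 medians of 68.0, 61.7 and 53.0 and H3K27ac medians of 34.3, 39.1 and 52.0, and PTPRC, CD3E and CD3D had no H3K27ac peak in any list. The part of these cell types in the results was not tested, and fewer cells of a type cannot be told apart from less of the mark per cell.

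Most WNT system genes carried both marks. H3K4me3 peaks were found at 31, 30 and 34 of the 41 genes, against 74.0%, 74.9% and 75.7% of all genes. H3K27ac peaks were found at 29, 34 and 34 of them, against 74.1%, 73.3% and 76.0%. With all peaks counted, the 41 genes were thus marked about as often as other genes, but their median percentiles were lower in all 6 lists. For H3K4me3 the medians were 57.2, 62.0 and 65.9, and over all genes 73.6, 72.3 and 75.9. For H3K27ac they were 51.3, 72.3 and 75.6, and over all genes 78.1, 73.0 and 77.0, so the distance from other genes was widest in GD15M_CM.

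**Figure D1:**
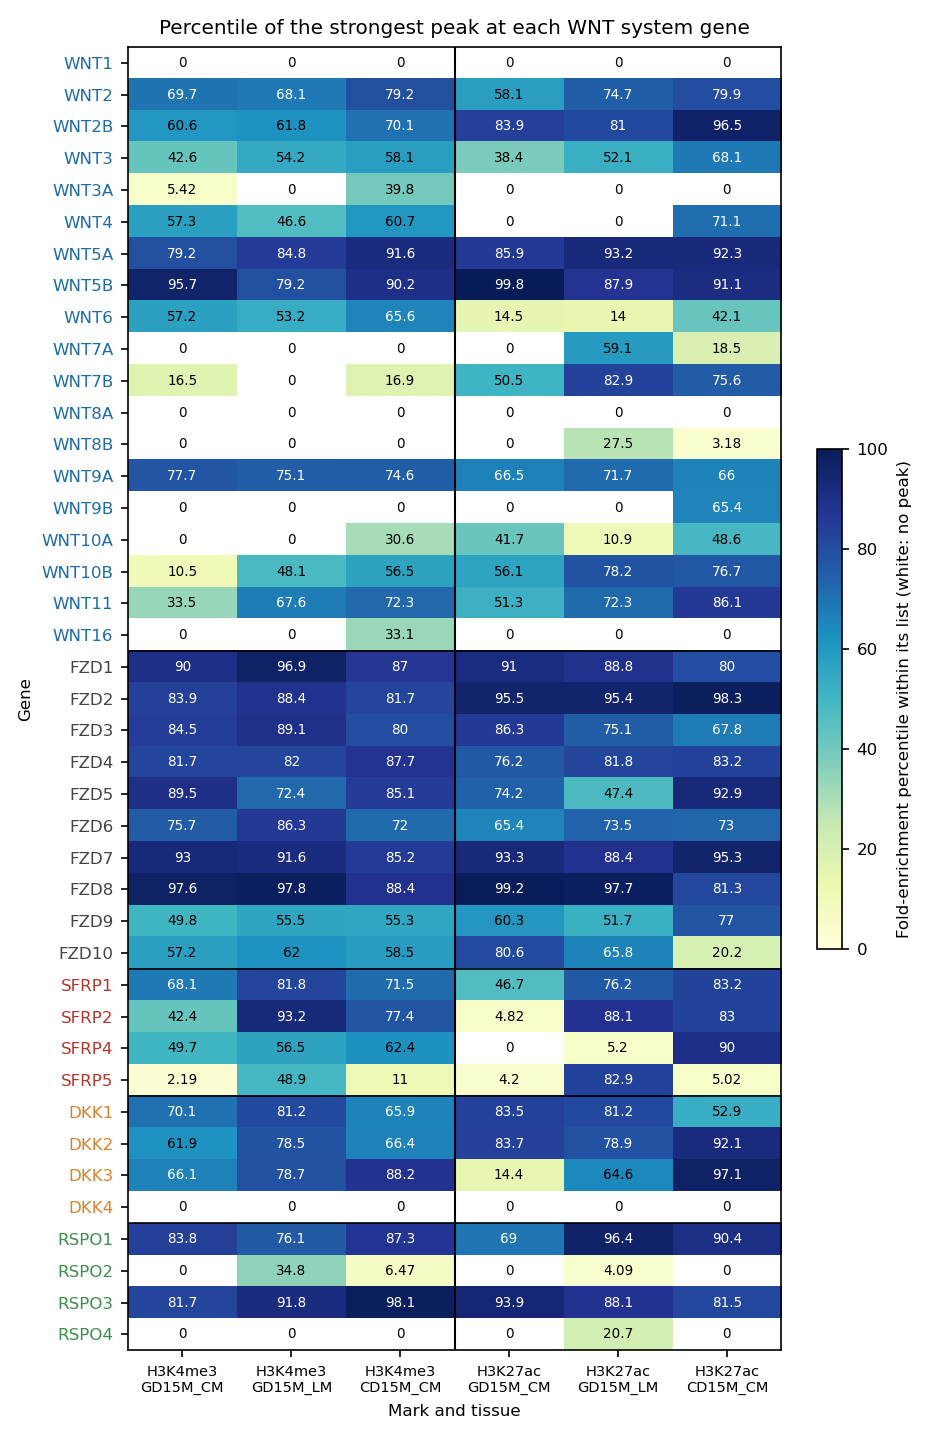
Percentile of the strongest H3K4me3 peak (left 3 columns) and H3K27ac peak (right 3 columns) for each of the 41 genes, with 1 pooled list per column; darker blue is higher and white cells with 0 have no peak. All 10 FZD rows are filled in every column, whereas WNT1, WNT8A and DKK4 are empty throughout and the SFRP rows are pale for H3K27ac in GD15M_CM.

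Between the muscle layers of pregnant gilts, 3 of 4 SFRP genes ranked higher in the longitudinal muscle for both marks, and 3 of 4 DKK genes did for H3K4me3. The ligands were divided for H3K4me3, with 3 higher in each layer, and for H3K27ac 7 ranked higher in GD15M_LM and 2 in GD15M_CM. For H3K4me3, 12 genes (29.3%) ranked higher in GD15M_LM, where 14.7% of all genes did, and 4 (9.76%) ranked higher in GD15M_CM, where 15.5% did. For H3K27ac, 13 genes (31.7%) ranked higher in GD15M_LM, against 16.6% of all genes, and 5 (12.2%) ranked higher in GD15M_CM, against 24.6%. In both marks the excess over other genes was on the side of GD15M_LM. Under a strict threshold on peaks the H3K27ac excess was not seen, with 10 members (24.4%) higher in GD15M_LM against 25.2% of all genes.

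Between pregnant and cyclic circular muscle, more WNT system genes ranked higher in the cyclic than in the pregnant muscle. For H3K4me3, 11 genes (26.8%) ranked higher in CD15M_CM, against 17.6% of all genes, and 0 ranked higher in GD15M_CM, against 9.10%. For H3K27ac, 17 genes (41.5%) ranked higher in CD15M_CM, against 19.8%, and 6 (14.6%) ranked higher in GD15M_CM, against 19.1%. Under the strict threshold 10 members (24.4%, against 24.9%) ranked higher in CD15M_CM and 6 (14.6%, against 18.3%) in GD15M_CM for H3K4me3, and 9 (22.0%, against 19.9%) ranked higher in CD15M_CM for H3K27ac. Both comparisons share the GD15M_CM lists, so a low or high value there enters both. Comparing GD15M_LM directly with CD15M_CM, 7 genes ranked higher in GD15M_LM for H3K4me3 (9.22% of all genes) and 10 in CD15M_CM (18.5%). For H3K27ac the counts were 7 (16.2%) and 12 (25.0%). The direction of this comparison turned when the lists were reduced to the same number of top peaks. It was then 10 genes for GD15M_LM (13.7% of all genes) and 4 for CD15M_CM (14.3%) in H3K4me3, and 16 (25.7%) and 8 (18.1%) in H3K27ac. Under the strict threshold it also turned, with 12 (20.9%) and 9 (21.2%) for H3K4me3 and 10 (25.4%) and 6 (18.3%) for H3K27ac.

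**Figure D2:**
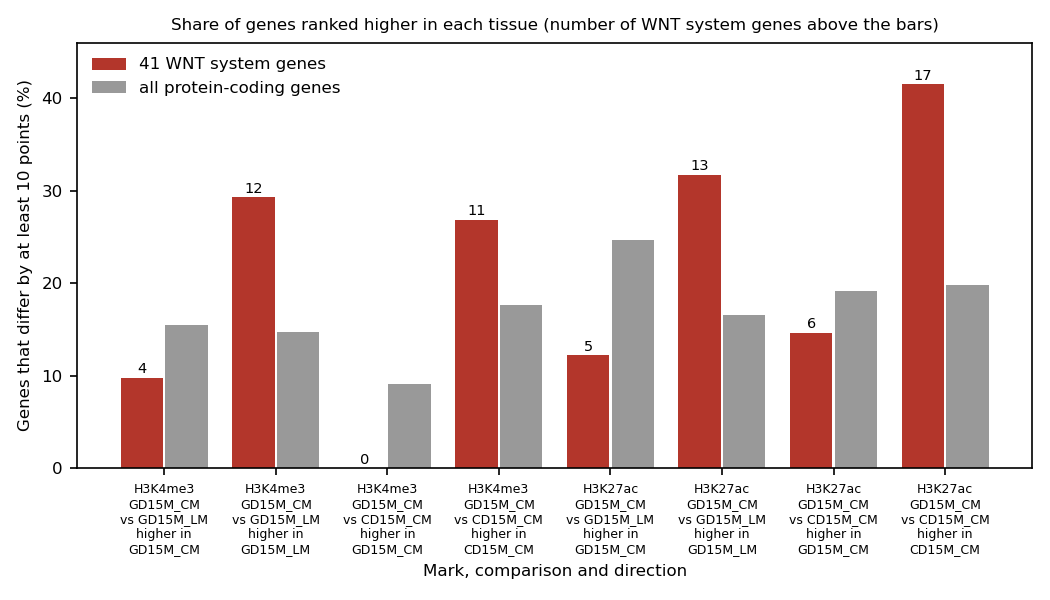
Share of genes whose percentile differed by at least 10 points, for the 41 WNT system genes (red, with their number above each bar) and all 19484 protein-coding genes (grey), by mark, comparison and tissue in which the gene ranked higher. The red bar exceeds the grey bar in the directions of GD15M_LM and CD15M_CM, and lies below it in all 4 bars for GD15M_CM.

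Among the ligands, 10 of 19 had an H3K4me3 peak in all 3 lists, where 72.2% of all genes did. These were WNT2, WNT2B, WNT3, WNT4, WNT5A, WNT5B, WNT6, WNT9A, WNT10B and WNT11. The median H3K4me3 percentile of the 19 ligands was 16.5, 46.6 and 56.5, and their H3K27ac median was 38.4, 52.1 and 66.0. WNT5A and WNT5B, both known as ligands of the pathway that does not use beta-catenin, ranked highest for H3K4me3. WNT5A (chr13:37344684-37367215) had H3K4me3 percentiles of 79.2, 84.8 and 91.6 and H3K27ac percentiles of 85.9, 93.2 and 92.3. Its H3K4me3 was 12.3 points lower in GD15M_CM than in CD15M_CM, the only one of its differences past 10 points.

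WNT5B was the only ligand that ranked at least 10 points higher in GD15M_CM than in GD15M_LM for both marks, and it did not differ by 10 points from CD15M_CM. Its H3K4me3 percentiles were 95.7, 79.2 and 90.2, and its H3K27ac percentiles were 99.8, 87.9 and 91.1. The strongest H3K27ac peak in GD15M_CM lay inside the gene at chr5:68678517-68680066, with a fold enrichment of 9.91 and, at a percentile of 99.8, the highest rank of any member. The window of WNT5B held 17, 5 and 18 H3K27ac peaks, with a summed length of 12988, 6604 and 15151 bp. Another gene, FBXL14, lies within WNT5B, and the strongest peaks also fall in its window. With peaks shared between genes left out, and in some other alternatives, the difference between the layers was under 10 points, with lowest values of 2.57 for H3K4me3 and 4.79 for H3K27ac.

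WNT11, a ligand with roles in cell polarity and kidney branching, ranked lowest in GD15M_CM for both marks. Its H3K4me3 percentiles were 33.5, 67.6 and 72.3. The strongest H3K4me3 peaks of GD15M_LM and CD15M_CM, with fold enrichments of 13.3 and 14.0, covered chr9:10432285-10435906 and chr9:10432337-10436000 at the higher-coordinate end of the gene. In GD15M_CM the strongest peak lay at another place, chr9:10430778-10431844, with a fold enrichment of 3.80. H3K27ac followed the same order at 51.3, 72.3 and 86.1. The H3K4me3 differences from GD15M_LM and CD15M_CM kept their direction and stayed at 10 points or more in all 8 alternatives, but ranged from -43.6 to -12.8 and from -48.3 to -16.2.

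WNT2 and WNT3 ranked higher in GD15M_LM and CD15M_CM for H3K27ac. WNT2, which acts in lung and placental development, had H3K27ac percentiles of 58.1, 74.7 and 79.9 beside H3K4me3 percentiles of 69.7, 68.1 and 79.2. WNT3, a ligand of the primitive streak, had 38.4, 52.1 and 68.1 for H3K27ac and 42.6, 54.2 and 58.1 for H3K4me3, and both marks were at least 10 points lower in GD15M_CM than in either other tissue. Each of these WNT3 differences fell to 0 in some alternative. The strongest WNT3 H3K27ac peaks of the layers lie apart, and another gene, NSF, has an end in the window. WNT2B, a relative of WNT2, had 83.9, 81.0 and 96.5 for H3K27ac and 60.6, 61.8 and 70.1 for H3K4me3. WNT2B's H3K27ac difference of 12.7 points in favour of CD15M_CM turned to 42.4 points in favour of GD15M_CM with a window of 1 kb. Its strongest H3K27ac peaks in these lists lie apart.

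WNT4, WNT6, WNT7A, WNT7B and WNT9B ranked higher for H3K27ac in cyclic than in pregnant circular muscle. Each of these differences fell to 0 in some alternative. WNT4, which acts in the development of the female tract and in decidualisation in mice, had H3K27ac percentiles of 0, 0 and 71.1. This single peak of CD15M_CM at chr6:80107565-80108348 lay beyond the lower-coordinate end, away from the H3K4me3 peaks at the other end, whose percentiles were 57.3, 46.6 and 60.7. WNT9B, an inducer of kidney tubules and of the female duct, had no H3K4me3 peak and H3K27ac percentiles of 0, 0 and 65.4. WNT6 had H3K27ac percentiles of 14.5, 14.0 and 42.1 and H3K4me3 percentiles of 57.2, 53.2 and 65.6.

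WNT7A, the epithelial ligand of the uterus, had no H3K4me3 peak in any list. Its H3K27ac percentiles were 0, 59.1 and 18.5, from 2 peaks with a summed length of 511 bp in GD15M_LM and 2 of 802 bp in CD15M_CM. WNT7B had H3K27ac percentiles of 50.5, 82.9 and 75.6, whereas its H3K4me3 peaks were weak, at 16.5, 0 and 16.9. Its H3K27ac difference between the layers of 32.4 points turned to 23.4 points in favour of GD15M_CM when only peaks within 3 kb of a gene end were used. H3K27ac at WNT7A ranked highest in GD15M_LM, where the epithelium markers had their lowest medians, and a link between them was not tested. The WNT7A difference between the layers was kept in 7 of 8 alternatives and was 0 under the strict threshold.

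The pair WNT10A and WNT10B differed in opposite ways between the layers. WNT10A, known from teeth and skin, had H3K27ac percentiles of 41.7, 10.9 and 48.6 and an H3K4me3 peak only in CD15M_CM, at a percentile of 30.6. WNT10B, a ligand of bone and fat precursors, had H3K4me3 percentiles of 10.5, 48.1 and 56.5 and H3K27ac percentiles of 56.1, 78.2 and 76.7. The strongest H3K4me3 peaks of WNT10B lie beyond its lower-coordinate end, in a window shared with ARF3. The H3K4me3 difference between the layers became 33.6 points in favour of GD15M_CM when peaks within 1 kb were joined, and the H3K27ac difference 15.9 points in favour of GD15M_CM with a window of 1 kb.

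The other ligands were weakly marked or without a peak, apart from WNT9A. WNT9A had H3K4me3 percentiles of 77.7, 75.1 and 74.6 and H3K27ac percentiles of 66.5, 71.7 and 66.0, and no difference reached 10 points. WNT3A, a ligand of the beta-catenin pathway, had H3K4me3 percentiles of 5.42, 0 and 39.8 and no H3K27ac peak. WNT16 had a single H3K4me3 peak in CD15M_CM at a percentile of 33.1. WNT8B had only H3K27ac, at 0, 27.5 and 3.18, and WNT1 and WNT8A had no peak of either mark in any list.

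Of the ligands, 8 lie in 4 neighbouring pairs, and the genes of a pair were not always marked alike. WNT9A and WNT3A are 25631 bp apart on chromosome 2, and the first ranked above the second in every list. WNT3 and WNT9B are 27848 bp apart on chromosome 12, and only WNT3 had H3K4me3. WNT6 and WNT10A are 7844 bp apart on chromosome 15, and WNT6 had H3K4me3 in every list but WNT10A only in CD15M_CM. Their H3K27ac percentiles were 14.5 and 41.7 in GD15M_CM, but 14.0 and 10.9 in GD15M_LM and 42.1 and 48.6 in CD15M_CM. WNT10B and WNT1 overlap by 3322 bp on chromosome 5 in the annotation, with peaks of WNT10B at its far end or inside it.

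The receptors were the most uniformly marked group. All 10 FZD genes had both marks in all 3 lists. Of all genes, 72.2% had H3K4me3 and 70.2% had H3K27ac in all 3. The FZD genes had median H3K4me3 percentiles of 84.2, 87.3 and 83.4 and H3K27ac medians of 83.4, 78.5 and 80.6. FZD1 (90.0, 96.9 and 87.0), FZD7 (93.0, 91.6 and 85.2) and FZD8 (97.6, 97.8 and 88.4) had the highest H3K4me3 percentiles in both lists of pregnant gilts, and in CD15M_CM FZD4 at 87.7 ranked second to FZD8. FZD2, FZD3 and FZD4 had H3K4me3 percentiles between 80.0 and 89.1 in every list, and FZD9 and FZD10 had the lowest, between 49.8 and 62.0. For H3K4me3, 0 FZD genes differed by 10 points between GD15M_CM and CD15M_CM. Of all genes, 9.10% ranked higher in GD15M_CM and 17.6% in CD15M_CM.

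FZD5 was the receptor that differed most in H3K4me3 between the layers. Its H3K4me3 percentiles were 89.5, 72.4 and 85.1 with fold enrichments of 20.02, 15.9 and 21.4, and the difference between the layers was from 16.5 to 30.5 points in all 8 alternatives. H3K27ac at FZD5 was 74.2, 47.4 and 92.9, with the strongest peak of GD15M_CM at the opposite end of the gene from the others. FZD6, a receptor of planar cell polarity, was the only FZD gene with H3K4me3 at least 10 points higher in GD15M_LM, at 75.7, 86.3 and 72.0, with H3K27ac at 65.4, 73.5 and 73.0.

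FZD8 and FZD10 ranked higher for H3K27ac in pregnant than in cyclic circular muscle. FZD8 had H3K27ac percentiles of 99.2, 97.7 and 81.3, and its peak in GD15M_CM, chr10:58096364-58098313, had a fold enrichment of 8.46. The FZD8 difference from CD15M_CM was 17.96 points and stayed in favour of GD15M_CM in all 8 alternatives, from 13.0 to 93.7 points. However, the strongest FZD8 peaks of GD15M_CM and CD15M_CM lie apart, so different places were compared. FZD10 had a single H3K27ac peak in each list, with percentiles of 80.6, 65.8 and 20.2 and fold enrichments of 4.57, 4.37 and 2.83, while its H3K4me3 percentiles were 57.2, 62.0 and 58.5. The FZD10 H3K27ac difference was kept in 7 of 8 alternatives against CD15M_CM and in 6 between the layers. Under the strict threshold both were 0.

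The remaining receptors differed less or less stably in H3K27ac. FZD3, a receptor of axon guidance, had H3K27ac percentiles of 86.3, 75.1 and 67.8, and thus ranked higher in GD15M_CM than in both other tissues. Its summed H3K27ac lengths went the other way, at 1405, 2210 and 2335 bp. The FZD3 difference was kept in 5 of 8 alternatives between the layers and in 6 against CD15M_CM, and was 0 under the strict threshold. Its strongest peaks in GD15M_CM and CD15M_CM lie apart. FZD1 had 91.0, 88.8 and 80.0, but its difference from CD15M_CM turned to 22.3 points in favour of CD15M_CM within 3 kb of a gene end, and FZD9 had 60.3, 51.7 and 77.0, with a difference that turned to 21.7 points in favour of GD15M_CM when peaks shared with its neighbour BAZ1B and other genes were left out. FZD2 (95.5, 95.4 and 98.3), FZD4 (76.2, 81.8 and 83.2) and FZD7 (93.3, 88.4 and 95.3) did not differ by 10 points.

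The SFRP antagonists differed widely between the tissues. Their median H3K27ac percentile was 4.51, 79.5 and 83.1, and their median H3K4me3 percentile was 46.1, 69.1 and 66.9. SFRP2 (chr8:75337311-75345926) had H3K4me3 percentiles of 42.4, 93.2 and 77.4. The strongest H3K4me3 peaks all lay over the lower-coordinate end, at chr8:75336823-75338620, chr8:75336274-75340220 and chr8:75336419-75338722, with fold enrichments of 4.22, 28.2 and 17.0. H3K27ac at the same end had percentiles of 4.82, 88.1 and 83.0, and the peak was 254 bp long in GD15M_CM against 2237 and 2787 bp. SFRP2 was thus weakly marked in pregnant circular muscle only, and its differences kept their direction and stayed at 10 points or more in all 8 alternatives except for H3K27ac against CD15M_CM, which was 0 under the strict threshold on peaks. For H3K4me3 they ranged from -86.9 to -34.5 between the layers and from -50.2 to -17.98 against CD15M_CM.

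SFRP1, an antagonist that binds WNT ligands through a domain like that of Frizzled, differed mainly in the extent of H3K27ac. Across the gene (chr17:10436414-10489773) there were 2, 17 and 19 H3K27ac peaks, with a summed length of 1340, 10774 and 11981 bp. The percentiles of the strongest H3K27ac peaks were 46.7, 76.2 and 83.2, but they lay at different places, inside the gene in the first 2 lists and at the higher-coordinate end in CD15M_CM. H3K4me3 was confined to that end of the gene in GD15M_CM and CD15M_CM, with percentiles of 68.1, 81.8 and 71.5, and a second peak was called in GD15M_LM.

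SFRP4 and SFRP5 were each highly marked with H3K27ac in a single tissue. SFRP4 had H3K27ac percentiles of 0, 5.20 and 90.0, with the CD15M_CM peak at chr9:108413745-108414768, and H3K4me3 percentiles of 49.7, 56.5 and 62.4. SFRP5 had H3K27ac percentiles of 4.20, 82.9 and 5.02 and H3K4me3 percentiles of 2.19, 48.9 and 11.0. The H3K4me3 peak of SFRP5 in GD15M_LM covered the higher-coordinate end at chr14:109124382-109126194, whereas the H3K27ac peak lay beyond the other end at chr14:109117276-109118252. SFRP5 shares its window with ZFYVE27 and GOLGA7B, so the peaks cannot be assigned to SFRP5 alone.

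**Figure D3:**
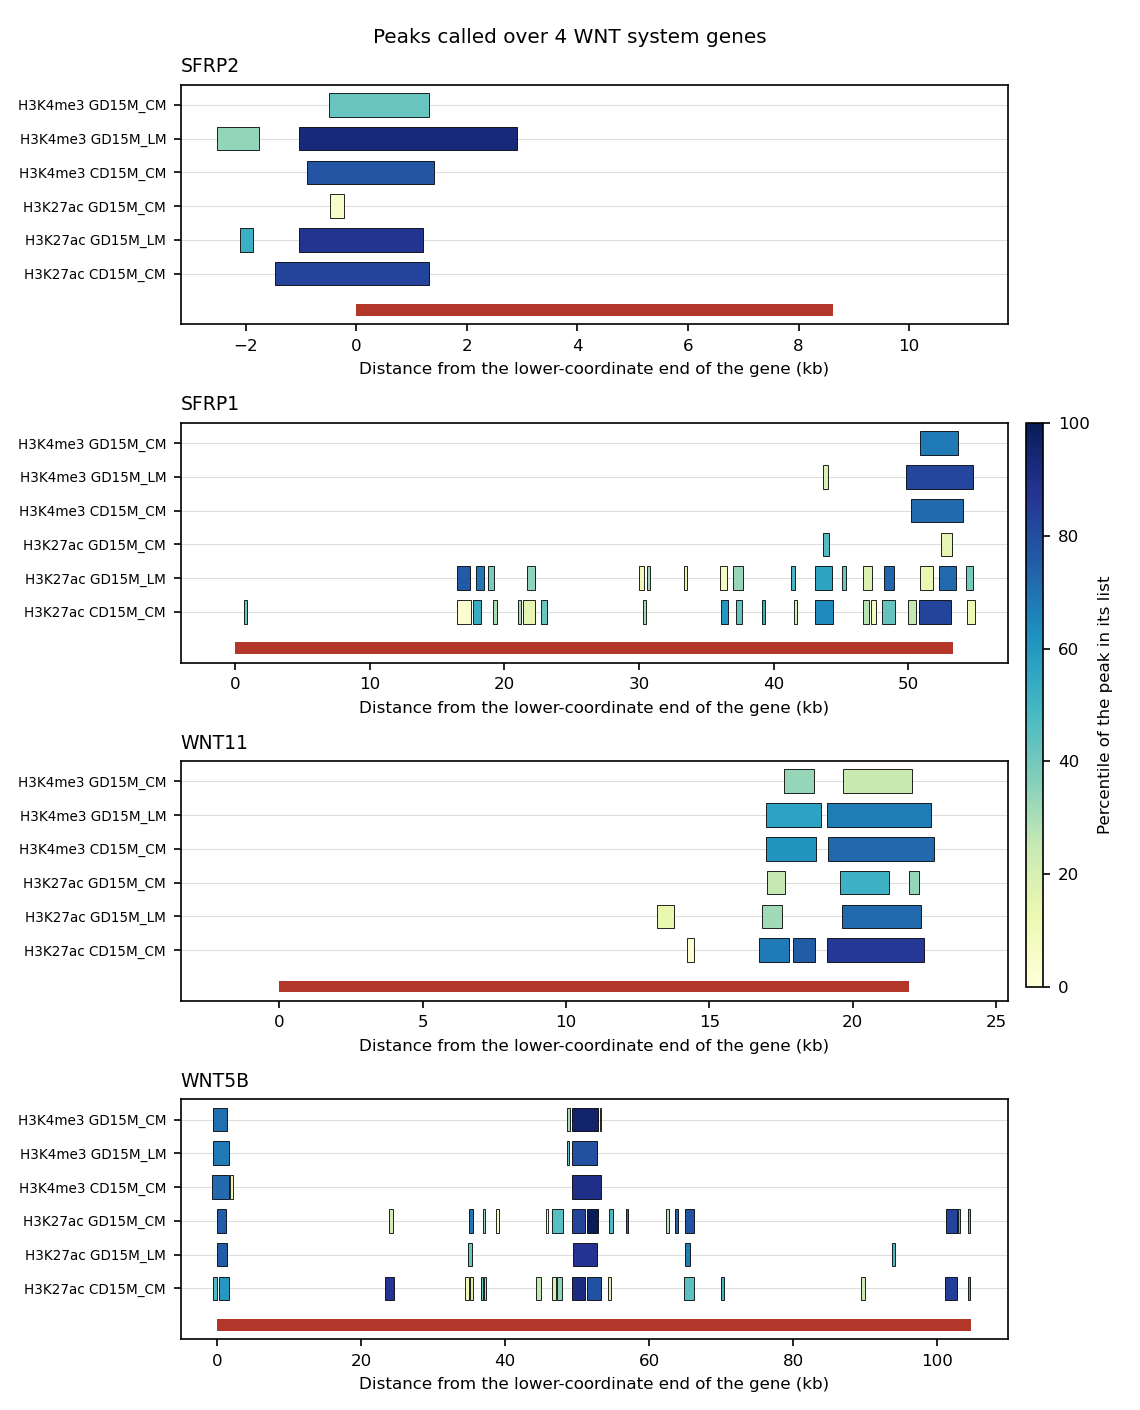
Peaks called over SFRP2, SFRP1, WNT11 and WNT5B in the 6 lists, by distance from the lower-coordinate end of the gene in kb (red bar: the gene); each box spans a peak and its colour gives the percentile in its own list. SFRP1 has 2 H3K27ac boxes in GD15M_CM against 17 in GD15M_LM and 19 in CD15M_CM, and WNT5B has 17 in GD15M_CM against 5 in GD15M_LM.

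Of the DKK genes, 3 of 4 ranked higher for H3K4me3 in longitudinal than in circular muscle of pregnant gilts, and DKK3 ranked highest in CD15M_CM. DKK1, the best known blocker of LRP5 and LRP6, had H3K4me3 percentiles of 70.1, 81.2 and 65.9 and fold enrichments of 11.2, 20.4 and 9.80. DKK2, a related co-receptor ligand, had 61.9, 78.5 and 66.4, from a strongest peak of 670 bp in GD15M_CM against 3981 and 3534 bp. With all H3K4me3 peaks of DKK2 counted, 2, 3 and 1 in number, the summed lengths were 2718, 4975 and 3534 bp. DKK3, a divergent member of the family, had 66.1, 78.7 and 88.2, and these layer differences of DKK1, DKK2 and DKK3 stayed in favour of GD15M_LM by 10 points or more in all 8 alternatives. They were widest under the strict threshold, at -27.5, -40.0 and -31.4. DKK4 had no peak of either mark.

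H3K27ac separated the DKK genes. DKK3 had H3K27ac percentiles of 14.4, 64.6 and 97.1, one of the widest differences between pregnant and cyclic circular muscle. The strongest DKK3 peak of CD15M_CM, with a fold enrichment of 6.78, lay inside the gene at chr2:47430647-47432210, while in both other lists it lay at the lower-coordinate end, where the H3K4me3 peaks were. DKK1 had 83.5, 81.2 and 52.9, and thus ranked higher in pregnant than in cyclic circular muscle, although the difference was 0 under the strict threshold. DKK2 had 83.7, 78.9 and 92.1, and the GD15M_CM peak was 206 bp long, so that its rank was high but the marked stretch short.

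Among the R-spondins, RSPO1 and RSPO3 were highly marked, and RSPO2 and RSPO4 were hardly marked. RSPO1 (chr6:93664839-93690328), known from ovary development, had H3K27ac percentiles of 69.0, 96.4 and 90.4 and summed lengths of 3468, 9320 and 8325 bp. H3K4me3 at RSPO1 was 83.8, 76.1 and 87.3 and did not follow the acetylation. The H3K27ac differences of RSPO1 kept their direction and stayed at 10 points or more in all 8 alternatives, from -81.8 to -19.1 between the layers and from -26.9 to -15.2 against CD15M_CM.

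RSPO3, known from the vessels of the placenta, had H3K4me3 percentiles of 81.7, 91.8 and 98.1, with fold enrichments of 16.2, 26.96 and 35.1. These H3K4me3 differences also stayed at 10 points or more in all 8 alternatives, from -23.3 to -10.1 between the layers and from -34.8 to -16.2 against CD15M_CM. H3K27ac at RSPO3 had the opposite order, 93.9, 88.1 and 81.5, but in GD15M_CM it was split into 3 peaks, and ranked by −log10 p the difference from CD15M_CM was 1.67 points in favour of CD15M_CM. RSPO2 had H3K4me3 percentiles of 0, 34.8 and 6.47 and an H3K27ac peak only in GD15M_LM, at 4.09. RSPO4 had a single peak in all lists, H3K27ac in GD15M_LM at 20.7.

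**Figure D4:**
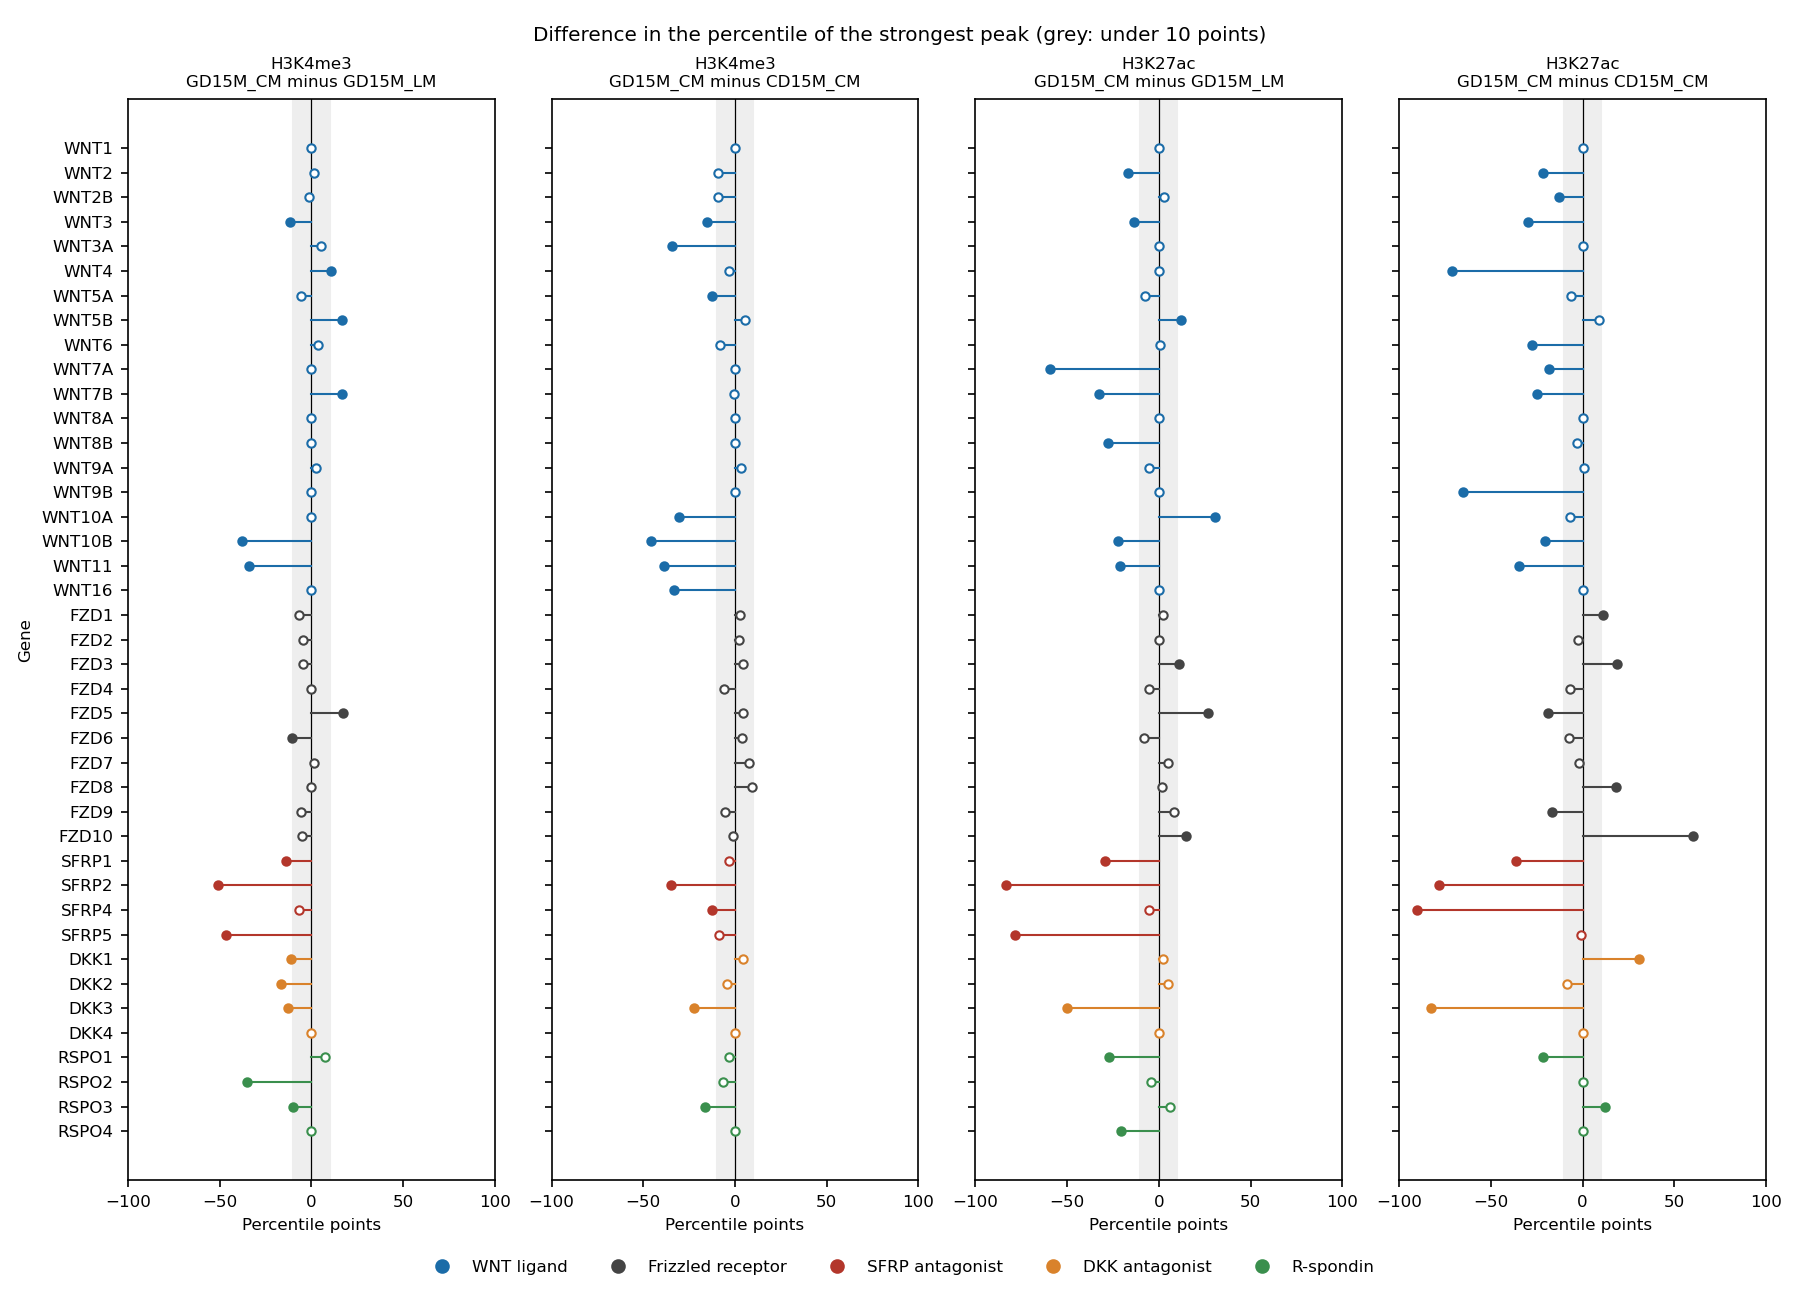
Percentile in GD15M_CM minus that in GD15M_LM or CD15M_CM for each of the 41 genes and both marks, coloured by role; filled points lie outside the grey band of 10 points and points left of 0 rank lower in GD15M_CM. SFRP2 lies at -50.8 and -35.0 for H3K4me3 and at -83.2 and -78.1 for H3K27ac, whereas the FZD points stay within the band for H3K4me3 against CD15M_CM.

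For H3K27ac the length of the marked stretch gave the same direction as the rank. For H3K27ac the summed peak length was at least 2 times as long in GD15M_LM as in GD15M_CM at 11 genes, against 5.67% of all genes, and the reverse held at 2 genes, WNT2B and FZD10, against 14.9%. The 11 genes were WNT6, WNT7A, WNT8B, all 4 SFRP genes, DKK2, RSPO1, RSPO2 and RSPO4. It was at least 2 times as long in CD15M_CM as in GD15M_CM at 12 genes, against 9.70% of all genes, and the reverse held at 0, against 5.27%. For H3K4me3 few genes differed in length, and between the layers both directions lay above all genes, with 4 (9.76%, against 5.37%) for GD15M_LM and 2 (4.88%, against 2.98%) for GD15M_CM. The H3K4me3 counts were 5 (5.38%) for CD15M_CM and 0 (1.30%) for GD15M_CM in the circular muscle.

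Within a tissue, the marks did not always rank a gene alike. Both marks were present at 28, 29 and 31 of the 41 genes, against 70.1%, 70.5% and 72.2% of all genes. H3K4me3 alone was found at WNT3A, WNT4 and SFRP4 in GD15M_CM (3.84% of all genes), at WNT4 in GD15M_LM (4.37%), and at WNT3A, WNT16 and RSPO2 in CD15M_CM (3.46%). H3K27ac alone was found at WNT10A in GD15M_CM (4.00%), at WNT7A, WNT7B, WNT8B, WNT10A and RSPO4 in GD15M_LM (2.80%), and at WNT7A, WNT8B and WNT9B in CD15M_CM (3.80%). Genes with neither mark numbered 9, 6 and 4, against 22.0%, 22.3% and 20.5%.

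The rest of the WNT pathway was similar to the 41 genes in its H3K4me3 counts for GD15M_LM and CD15M_CM. For GD15M_CM its H3K4me3 shares were near those of all genes, whereas those of the 41 genes lay below. Its H3K27ac counts were less one-sided, and these differences were not tested. Of 59 further pathway genes in 6 lists, 58 could be placed. For H3K4me3, 10 of them ranked higher in GD15M_CM and 16 in GD15M_LM (17.2% and 27.6%, against 15.5% and 14.7% of all genes), and 6 ranked higher in GD15M_CM and 14 in CD15M_CM (10.3% and 24.1%, against 9.10% and 17.6%). For H3K27ac, 10 ranked higher in GD15M_CM and 8 in GD15M_LM (17.2% and 13.8%, against 24.6% and 16.6%), and 11 ranked higher on each side of the comparison with CD15M_CM (18.97%, against 19.1% and 19.8%). The excess towards GD15M_LM and CD15M_CM that the 41 genes had for H3K27ac was therefore not seen in these counts.

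Among genes of WNT secretion and co-reception, 2 of 8 ranked higher for H3K4me3 in GD15M_LM and 0 in GD15M_CM. ROR2, a receptor for WNT5A, had 70.4, 97.7 and 93.4, and ROR1 had 73.8 in GD15M_CM and 91.8 in GD15M_LM. PORCN, which adds the lipid to WNT proteins, had H3K27ac percentiles of 24.7, 83.5 and 35.8 and H3K4me3 percentiles of 69.0 in GD15M_CM and 79.4 in CD15M_CM. WLS, which carries WNT proteins to the cell surface, went the other way for H3K27ac, with 90.6, 72.3 and 76.0. RYK, a receptor-like kinase for WNT proteins, had H3K27ac percentiles of 75.7 in GD15M_CM and 98.7 in CD15M_CM.

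Antagonists outside the SFRP and DKK families were divided between the layers. For H3K4me3, 3 of 10 ranked higher in each layer, while against the cyclic muscle 4 ranked lower in GD15M_CM and 0 ranked higher. For H3K27ac, 2 ranked higher in GD15M_CM and 1 in GD15M_LM. WIF1, which binds WNT proteins, had H3K4me3 percentiles of 50.2, 0 and 63.5 and H3K27ac percentiles of 0, 0 and 51.0. SOSTDC1, a binder of co-receptors, had H3K4me3 in GD15M_LM at 39.5 and none in both circular muscles. NOTUM, an enzyme that removes the lipid from WNT proteins and is made by uterine glands, had H3K27ac percentiles of 87.1, 43.6 and 86.8. KREMEN1 and KREMEN2 are receptors for DKK proteins: KREMEN1 had H3K4me3 percentiles of 75.7 in GD15M_CM and 96.0 in CD15M_CM, and KREMEN2 had H3K27ac percentiles of 4.05, 53.8 and 60.5.

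The receptors of the R-spondins were LGR4, LGR5 and LGR6, and the ligases they remove are RNF43 and ZNRF3. LGR5 had H3K4me3 percentiles of 0, 46.7 and 4.74 and H3K27ac percentiles of 0, 33.6 and 19.6, and was thus without a peak in GD15M_CM, where RSPO2 also had none. LGR4 had H3K4me3 percentiles of 71.7, 90.7 and 91.9, and LGR6 had H3K27ac percentiles of 31.3 in GD15M_CM and 48.9 in CD15M_CM. RNF43 had H3K4me3 percentiles of 89.9, 91.4 and 76.2, and ZNRF3 had H3K27ac percentiles of 95.9, 84.4 and 99.0. The medians of these 5 genes for H3K4me3 were 71.7, 90.7 and 76.2.

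In signal transduction, 6 of 16 genes ranked higher for H3K4me3 in GD15M_LM and 1 in GD15M_CM. DVL2, which relays the signal from Frizzled, was that gene, with 99.6, 66.1 and 80.0. CTNNBIP1, an inhibitor of beta-catenin, had H3K4me3 percentiles of 63.0 in GD15M_CM and 87.1 in GD15M_LM. APC2 had H3K4me3 percentiles of 56.3 in GD15M_CM and 77.6 in CD15M_CM, and H3K27ac percentiles of 74.8 in GD15M_CM and 86.1 in GD15M_LM. APC, a scaffold of the complex that degrades beta-catenin, had no H3K4me3 peak in any list and H3K27ac only in CD15M_CM, at 62.6. VANGL2, a planar polarity protein, had H3K27ac percentiles of 79.7, 35.9 and 83.2, and CAMK2D, a calcium-dependent kinase, had 90.3 in GD15M_CM and 53.5 in CD15M_CM.

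Among nuclear factors, 3 of 9 ranked higher for H3K4me3 in GD15M_CM than in GD15M_LM and 1 ranked lower. PYGO1 and TLE3, co-factors of TCF/LEF proteins, had H3K4me3 percentiles of 92.2 and 97.0 in GD15M_CM against 70.6 and 75.8 in GD15M_LM, and TLE3 had H3K27ac percentiles of 95.6, 96.0 and 79.7. BCL9L, another co-factor, had H3K4me3 percentiles of 88.6, 92.0 and 70.4, and TCF7L2 had 76.9 in GD15M_CM and 92.6 in CD15M_CM. TCF7L1 had H3K27ac percentiles of 41.5, 0 and 55.1, and LEF1 had 93.4 in GD15M_CM and 78.6 in GD15M_LM.

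Genes known as WNT targets moved in both directions. For H3K4me3, 3 of 10 ranked higher in GD15M_CM and 2 in GD15M_LM. MSX1 and MSX2, homeobox genes of the uterine epithelium and stroma, had H3K4me3 percentiles of 95.1, 67.4 and 95.8 and of 75.3, 54.1 and 81.9, and MSX2 had H3K27ac percentiles of 86.9, 0 and 70.5. Both ranked lowest for H3K4me3 in GD15M_LM, where the epithelium markers had their lowest H3K4me3 median and the stroma markers their highest. A link with either cell type was not tested. SP5 had H3K4me3 percentiles of 41.2 in GD15M_CM and 66.6 in CD15M_CM, and an H3K27ac peak only in CD15M_CM, at 70.9. MYC had H3K27ac percentiles of 64.5 in GD15M_CM and 99.1 in GD15M_LM, and TNFRSF19 had 60.9 in GD15M_CM and 97.3 in CD15M_CM.

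For H3K27ac between the layers, 7 of 9 epithelium markers ranked at least 10 points higher in GD15M_CM and 0 in GD15M_LM. Of the members, 5 ranked higher in GD15M_CM and 13 in GD15M_LM (24.6% and 16.6% of all genes). For H3K4me3, 4 of 10 smooth muscle markers ranked higher in GD15M_LM (14.7% of all genes) and 0 in GD15M_CM (15.5%). Between the circular muscles, 5 ranked higher in CD15M_CM (17.6%) and 1 in GD15M_CM (9.10%). For H3K27ac, 4 smooth muscle markers ranked higher in GD15M_LM (16.6%) and 2 in GD15M_CM (24.6%). Between the circular muscles, 3 ranked higher in CD15M_CM (19.8%) and 0 in GD15M_CM (19.1%). The part of the amount of muscle, epithelium or any other cell type in the members' differences was not tested.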

How the data were processed

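CUT&Tag profiles of H3K4me3, H3K27ac and IgG were analysed from 18 libraries, 12 of the marks and 6 of IgG, with 2 gilts for each mark or control and tissue. Per the methods of the authors, reads were mapped to Sus scrofa 11.1, and reads of low mapping quality and duplicates were removed. Peaks were called on pooled replicates, and the signals of the marks were normalised with IgG as control. The submitters' processing notes name BWA 0.7.17-r1188, SAMtools 1.9, Picard 2.8.3 and MACS2 2.2.6. The fold enrichment that the authors deposited is a ratio with IgG as the denominator, and the scaling of the libraries is not given in the sources used here. The deposited −log10 p column had an unreadable name and was identified by its position and by its identity with the peak list in the study's supplement. A further deposited column, taken to be −log10 q, was not used. Peak length in bp was used as the authors deposited it. Depth per library is not in these lists, so no counting error could be given.

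Genes and coordinates came from a RefSeq table of Sscrofa11.1, which gave no strand, so a promoter window could not be drawn and gene ends are named by coordinate. A peak was assigned to every gene whose window it touched by at least 1 bp. Percentiles are ranks of fold enrichment within a list. Summed lengths were called different at 2 times or more. Members, gene lists and marker lists were chosen with earlier results of these data known. Each member was to be named with its percentiles, members that differed by at least 10 points with their values, and of each pathway list the 2 genes with the largest difference per mark and comparison if it reached 10 points. The direct comparison of GD15M_LM with CD15M_CM was added after seeing the data.

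No test was possible, since each group has 1 pooled list. Python 3.11.15, pandas 2.3.3, NumPy 2.4.6 and Matplotlib 3.10.9 were used, and the assignment of peaks to genes was tested on simulated data. The alternatives were a strict threshold (only peaks with a fold enrichment of 5 or more and a −log10 p of 10 or more), a window of 1 kb, at least 50% of the peak in the window, peaks joined within 1 kb, ranking by −log10 p, the same number of top peaks and a limit of 20 points. Peaks within 3 kb of a gene end, and peaks shared with another gene left out, were added after seeing the data.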

Additional observations from a re-analysis of the deposited data

How the results depend on the processing

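Of the 68 differences of at least 10 points at single members, 19 kept their direction and stayed at 10 points or more in all 8 alternatives, although their size moved, for SFRP4 between -90.0 and -24.3. These were H3K4me3 at DKK1, DKK2, FZD5 and SFRP1 between the layers, at WNT5A between the circular muscles and at SFRP2, WNT11, RSPO3 and DKK3 in both comparisons, and H3K27ac at SFRP2 between the layers, at DKK3, FZD8 and SFRP4 between the circular muscles and at RSPO1 in both. Under the strict threshold 30 of the 68 did, and with peaks ranked by −log10 p 52 did. The strict threshold left an H3K27ac peak at 6, 15 and 11 members in GD15M_CM, GD15M_LM and CD15M_CM (14.6%, 36.6% and 26.8%, against 38.9%, 44.5% and 37.7% of all genes). It left an H3K4me3 peak at 22, 29 and 28 members (53.7%, 70.7% and 68.3%, against 69.0%, 70.8% and 71.1%). For H3K4me3, members ranked higher in GD15M_CM than in CD15M_CM numbered 6 under the strict threshold (18.3% of all genes), 2 with peaks joined (12.8%), and 1 with a window of 1 kb (9.14%) or with the same number of top peaks (11.8%). For H3K27ac, those higher in GD15M_CM than in GD15M_LM numbered 1 under the strict threshold (18.7%), 8 with a window of 1 kb (25.1%), 3 with the same number of top peaks (19.1%) and 2 at 20 points (15.1%), and those higher in CD15M_CM than in GD15M_CM numbered 9 under the strict threshold (19.9%). At 20 points the H3K4me3 counts were 0 for GD15M_CM (5.23%) and 5 for GD15M_LM (5.66%) in the layers and 7 for CD15M_CM (6.09%), and the H3K27ac count for GD15M_CM over CD15M_CM was 2 (11.3%).

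Some differences (GD15M_CM minus the other tissue) changed direction, and the cause was not tested. For H3K4me3 these were WNT10B between the layers at 33.6 with peaks joined, and WNT7B against CD15M_CM at 16.5 with a window of 1 kb. For H3K27ac between the layers they were, under the strict threshold, DKK1 at -12.5, FZD1 at -16.6, FZD2 at -13.6 and WNT2B at -11.8. With a window of 1 kb they were FZD2 at -13.8 and WNT10B at 15.9, the latter also at 15.9 with shared peaks left out. Within 3 kb of a gene end they were FZD1 at -31.2 and WNT7B at 23.4. WNT6 was at -15.2 ranked by −log10 p and at -14.0 with the same number of top peaks. For H3K27ac against CD15M_CM they were FZD1 at -22.3 within 3 kb of a gene end and at -3.81 ranked by −log10 p, FZD9 at 21.7 with shared peaks left out, WNT2B at 42.4 with a window of 1 kb, and RSPO3 at -1.67 and SFRP5 at 11.4 ranked by −log10 p. Several of these were under 10 points in the main setting and so were not among the 68. They were WNT7B for H3K4me3, SFRP5, and DKK1, FZD1, FZD2, WNT2B and WNT6 between the layers.

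No paired analysis was possible because the lists pool both replicates and no result comes from a test, and leaving out a replicate was not run for the same reason. The promoter window was not run, as the gene table gives no strand.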

Other observations

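Peaks up to 50 kb from a member that lie in the window of no protein-coding gene were counted as a description. For H3K27ac there were 77, 82 and 119 such peaks near the 41 members in GD15M_CM, GD15M_LM and CD15M_CM. With a peak counted at every gene within reach, this was a mean of 1.93, 2.02 and 3.02 per gene, against 1.37, 0.845 and 1.33 over all genes. For H3K4me3 there were 19, 28 and 42, a mean of 0.512, 0.732 and 1.10, against 0.496, 0.436 and 0.595. At least 1 such H3K27ac peak was found at 22, 18 and 22 members, against 40.7%, 32.0% and 41.1% of all genes. An H3K4me3 peak of this kind was found at 7, 11 and 10 members, against 23.5%, 23.7% and 26.6%. WNT7B alone had 20, 20 and 26 of the H3K27ac peaks and 8, 9 and 17 of the H3K4me3 peaks. The means therefore depend strongly on this gene. No cause was examined, and peaks at this distance cannot be assigned to a gene from these lists.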
